A study of Mus musculus with 10 samples.

Results

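Microglia sorted from Trem2-/- mice that had been returned to normal food for 2 weeks after cuprizone were compared with microglia of untreated Trem2-/- mice. The comparison rests on 3 of the 10 arrays of the study, chosen by their titles: a recovery library after 4 weeks on cuprizone (4+2), a recovery library after 12 weeks on cuprizone (12+2) and a single untreated control library. The question was which changes remain, or appear late, once the toxin is withdrawn, at each feeding time. The other 7 libraries were Trem2-/- microglia after 4 or 12 weeks on cuprizone without recovery, and the same 5 conditions in WT mice.

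All mice were males, 8 to 12 weeks old by their labels, either C57BL/6 or Trem2-/-, and the diet held 0.2% cuprizone. Cells were sorted by flow cytometry, and the labels name neither the markers of the sort nor the number of animals behind a library. Each condition has 1 library, so no p-value here measures a spread between known replicate animals. Submitted sample numbers form 2 runs: the 4-week libraries share the first with both controls, and the 12-week libraries fill the second. A run here means consecutive sample numbers, since the sources used here name no hybridisation or scan batch. Run and feeding time cannot be told apart here, so every 12+2 value is set against a control from the other run. Pearson correlations of log2 intensity over all probes were 0.99 between the 4+2 library and the control and 0.978 between the 12+2 library and the control, within ranges of 0.983 to 0.991 for 21 array pairs of the same run and 0.974 to 0.983 for 24 pairs across runs.

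TREM2 is a receptor on microglia that binds lipids, lipoproteins and myelin debris and signals through the adaptor Tyrobp. In demyelinated brain, microglia take up debris and switch on a set of lipid-handling, lysosomal and adhesion genes called the disease-associated programme, and its later part depends on TREM2 in mouse models. Cuprizone kills oligodendrocytes, and myelin starts to be rebuilt after the diet is stopped. Macrophages at the borders of the brain, in the meninges, choroid plexus and around vessels, share much of their gene expression with microglia but carry markers of their own such as Mrc1, Cd163 and Lyve1.

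Trem2 itself measured 7.85 (4+2) and 7.26 (12+2) on the log2 intensity scale in the recovery libraries and 7.53 in the Trem2-/- control. It measured 7.78 and 7.47 in the Trem2-/- libraries on cuprizone for 4 and 12 weeks and lay between 10.66 and 10.81 in the 5 WT libraries, so all 5 Trem2-/- libraries matched their genotype label. The remaining signal stood above the table's median of 5.27, a level near background, and the sources used here do not give the deleted part of the gene. Markers of the labelled cell type were bright. Cx3cr1, the fractalkine receptor, measured 12.45 and 12.23 in recovery and 12.47 in the control, the purinergic receptor P2ry12 11.35 and 11.18 against 11.26, and Tmem119 11.55 and 10.95 against 11.40. All 27 homeostatic microglia genes on the array lay above the table's median in each of the 3 libraries.

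Before single genes, the size of the response is given. Of 10792 genes tested, 71 lay more than 2-fold above the control in the 4+2 library (0.658%) and 5 more than 2-fold below it (0.0463%). In the 12+2 library 212 genes lay more than 2-fold above (1.96%) and 164 below (1.52%). WT recovery against its own control gave 0.825% above and 0.12% below at 4+2, and 2.52% above and 1.87% below at 12+2, so both genotypes showed the larger number at 12+2. Over all genes tested, 54.2% were higher than the control by any amount in the 4+2 library (median difference 0.0261) and 47.8% in the 12+2 library (median -0.0226). These counts set single libraries side by side and carry no test, and both durations share the 1 control.

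No gene passed limma's test in any of the comparisons as designed. Over both durations, 0 genes were called at an adjusted p under 0.05 and 151 (1.4%) had an unadjusted p under 0.05, the smallest adjusted p being 0.27 for Ifi207. For 4+2 the test gave 0 calls, 337 genes (3.12%) with unadjusted p below 0.05 and Ccl7 at the smallest adjusted p, 0.103. For 12+2, with the duration difference common to the other 3 pairs of libraries taken off, it gave 0 calls, 566 genes (5.24%) and a smallest adjusted p of 0.119 for Cst7. The last 2 counts depended on the WT recovery pair: without either of its libraries 46 and 61 genes were called, for 4+2 and 12+2 in that order, and without either Trem2-/- cuprizone library 7 and 2.

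When titled duration entered the joint comparison as a replicate block, 18 genes passed as higher in recovery (0.167% of those tested) and 1 as lower (0.00927%), with 444 (4.11%) at an unadjusted p under 0.05. The 18 were Ccl7, Ifi207, Pf4, Clec4n, Cbr2, Ms4a4a, Apoe, Cd163, Mrc1, Cst7, Ms4a7, Ccl8, F13a1, Dab2, Cd209f, Ccl24, Iqgap2 and Cd36, and the lower one was Cry1. The block places both controls beside the 4-week libraries, so it compares 12+2 with a control shifted by a common duration difference. That difference was estimated from all pairs of 4- and 12-week libraries, the Trem2-/- recovery pair included. The count was 9 without any 1 of the 4 cuprizone libraries, 24 without either WT recovery library and 0 without either Trem2-/- recovery library. It was 2, Ccl7 and Ifi207, when the Trem2-/- cuprizone library whose title says 12 weeks and whose time label says 4 was counted as 4 weeks. Differences given below with "the block" come from that fit, with adjusted p from limma over all 10792 genes. They include the common duration shift, so they can exceed the difference of either recovery library from the control.

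Ccl8 and Ccl7, chemokines that attract monocytes, were among the 10 genes furthest above the control at both feeding times. Ccl8 measured 6.81 and 6.70 in the 4+2 and 12+2 libraries and 4.37 in the control, which is 5.42-fold and 5.01-fold higher. The control level lies under the table's median, so these folds may be compressed. With the block the difference was 2.60 ± 0.37 (SE, adjusted p = 0.0421).

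Ccl7, a ligand of the monocyte receptor CCR2, measured 10.42 and 10.20 in recovery and 8.46 in the control, 3.89-fold and 3.36-fold higher, and it was the gene with the smallest p under the block (1.97 ± 0.19, adjusted p = 0.0155). Its neighbour in function Ccl2 lay 1.08 and 1.05 log2 units above its control level of 8.95 and did not pass (1.16 ± 0.19 with the block, adjusted p = 0.0769). The eosinophil attractant Ccl24 measured 8.32 and 7.58 against 6.91 (1.51 ± 0.23, adjusted p = 0.0467). For Ccl7, Ccl8 and Ccl2 the 2 recovery libraries lay close together and both above the control.

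The 2 controls were not alike for these genes. Ccl8 was 5.61 and Ccl7 9.09 in the WT control, above the Trem2-/- control in both cases. Against their own control, WT recovery libraries were 0.60 and 0.64 higher for Ccl8 and 1.47 and 1.26 higher for Ccl7. The test of the genotype difference in recovery response had 0 calls, and Ccl8 gave 1.76 ± 0.67 there (unadjusted p = 0.0296, adjusted p = 1 for all named genes of that test).

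Of 28 tested cytokine and chemokine genes, 22 were higher in the 4+2 library, 8 of them past 2-fold, and 2 lay past 2-fold lower (median difference 0.368). Over all genes tested the median was 0.0261, with 54.2% higher and 0.658% past 2-fold higher. In the 12+2 library 24 were higher, 13 past 2-fold, with 2 past 2-fold lower (median 0.853, against -0.0226, 47.8% higher and 1.96% past 2-fold higher over all genes). The joint test called none of them. The block called 3 as higher, namely Ccl7, Ccl8 and Ccl24, and 0.167% of all genes tested. The neutrophil attractant Cxcl2 was at 10.21 and 10.51 in recovery and 8.78 in the control, and the anti-inflammatory cytokine Il10 at 6.18 and 6.11 against 4.95, neither past the test. The 2 lower genes were Ccl22, at 3.76 and 3.90 against 5.38, and Ccl17, at 4.42 and 4.68 against 5.86. For Ccl22 the 4+2 difference was smaller against the mean of the Trem2-/- and WT controls, as given with the processing alternatives below. Ccl22 and Ccl17 are ligands of the receptor CCR4, and in recovery both lay under the table's median, near background.

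Ifi207 and Ifi213, which belong to the interferon-inducible Ifi200 family, were also among the 10 highest genes. Ifi207 measured 9.14 and 9.44 in recovery and 6.93 in the control, 4.64-fold and 5.70-fold higher, and passed with the block (2.28 ± 0.24, adjusted p = 0.0219). Ifi213 measured 5.26 and 6.34 in recovery and 3.58 in the control and did not pass (2.19 ± 0.61, adjusted p = 0.669). Against the mean of both controls the block difference of Ifi207 was 1.84, so its level in the WT control lay above that in the Trem2-/- control. The family consists of close copies in 1 cluster on chromosome 1, and cross-binding of probes between members was not tested.

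The 120 bases up to the RefSeq starts of Ifi207 and Ifi213 (GRCm38.p6) are printed because these 2 members were among the 10 genes furthest above the control at both feeding times.
Ifi207 (chr1:173741810-173741929, minus strand): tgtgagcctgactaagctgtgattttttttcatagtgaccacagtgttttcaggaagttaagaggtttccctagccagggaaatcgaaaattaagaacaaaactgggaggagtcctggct
Ifi213 (chr1:173599273-173599392, minus strand): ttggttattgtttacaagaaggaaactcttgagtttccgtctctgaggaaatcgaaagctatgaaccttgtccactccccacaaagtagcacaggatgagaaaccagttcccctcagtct

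Across the 22 tested interferon response genes, 19 were higher in the 4+2 library (3 past 2-fold, median 0.361) and 17 in the 12+2 library (7 past 2-fold, median 0.519). Over all genes 54.2% were higher, 0.658% past 2-fold, at 4+2 (median 0.0261), and 47.8%, 1.96% past 2-fold, at 12+2 (median -0.0226). WT recovery gave medians of 0.285 and 0.578. Ifi27l2a measured 9.38 and 9.35 in recovery and 8.06 in the control, and the antiviral membrane protein gene Ifitm3 9.77 and 9.22 against 8.69. Neither passed the joint test, and with the block 1 member, Ifi207, passed, where 0.167% of all genes tested passed as higher. Ifit1, a sensor of viral RNA, was at 6.58 in the 12+2 library, against 4.77 in the 4+2 library and 4.64 in the control.

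**Figure D1:**
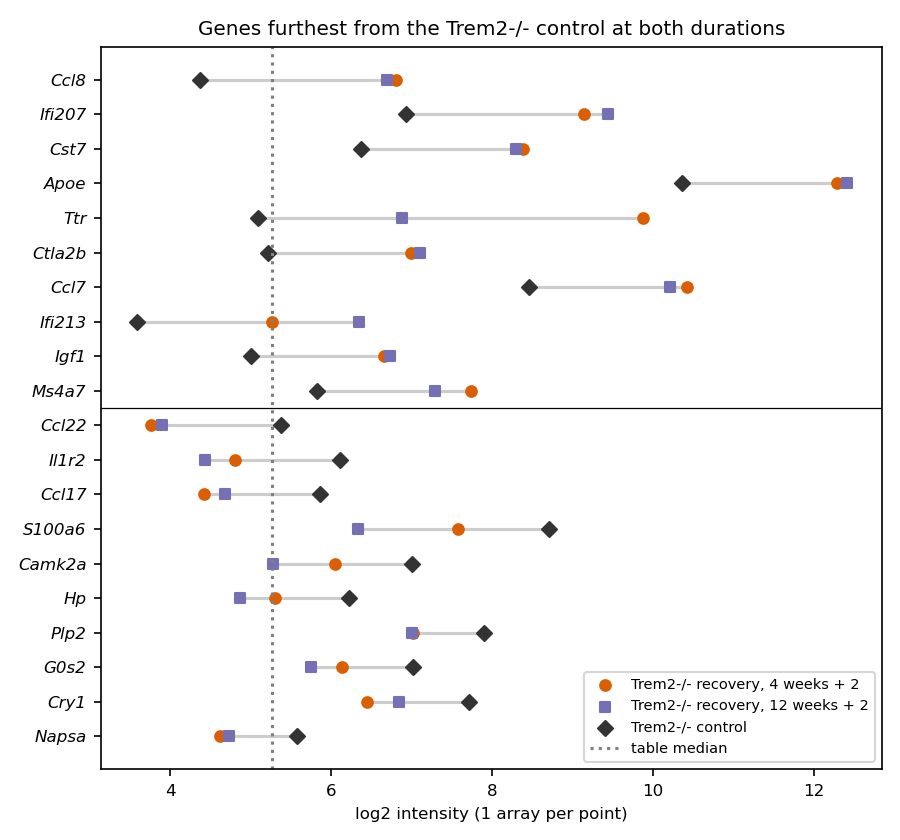
Log2 intensity on the horizontal axis of the 10 genes furthest above (upper block) and the 10 furthest below (lower block) the Trem2-/- control at both feeding times. Circles are the 4+2 library, squares the 12+2 library, diamonds the control, 1 array each, and the dotted line is the table's median of 5.27; Ccl8, Ifi213, Ttr, Igf1 and Ctla2b have control levels under it.

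Genes of lipid handling and of the disease-associated programme were partly higher. Apoe, the main lipid carrier of the brain, measured 12.28 and 12.40 in recovery and 10.36 in the control, 3.80-fold and 4.13-fold higher (2.04 ± 0.27 with the block, adjusted p = 0.031). Cst7, an inhibitor of lysosomal proteases, measured 8.38 and 8.30 against 6.37, 4.03-fold and 3.80-fold higher (2.30 ± 0.31, adjusted p = 0.0342). Ms4a7, a membrane protein of macrophages, measured 7.74 and 7.29 against 5.83 (1.79 ± 0.25, adjusted p = 0.0361). For all 3 genes both recovery libraries lay at least 1.46 log2 units above the control.

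These levels can be read beside the Trem2-/- libraries still on cuprizone. Apoe was 11.79 after 4 weeks and 11.14 after 12 weeks on the diet, below both recovery libraries. Cst7 was 7.76 and 6.66 on the diet, also below both recovery libraries. The growth factor Igf1 measured 6.66 and 6.73 in recovery, 6.37 and 5.07 on the diet and 5.004 in the control, without passing the test of recovery against control (1.69 ± 0.47, adjusted p = 1). The WT recovery libraries gave like values for Apoe (12.57 and 12.73) and Cst7 (8.71 and 8.31).

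The 31 tested members of the disease-associated list split. At 4+2, 29 were higher, 6 of them past 2-fold (median 0.276), and at 12+2, 25 were higher and 11 past 2-fold (median 0.415). Over all genes 54.2% and 47.8% were higher in the same order, and 0.658% and 1.96% were past 2-fold higher. WT recovery medians were 1.183 and 1.412. Gpnmb, a glycoprotein of lipid-laden phagocytes, measured 5.24 and 4.90 in Trem2-/- recovery and 4.64 in its control, all near the table's median, and was 3.01 and 2.82 above control in WT recovery. In the test of that genotype difference, Gpnmb gave -2.48 ± 0.43 (unadjusted p = 0.000366) and the oxidised lipoprotein receptor Olr1 -2.05 ± 0.63 (unadjusted p = 0.011). That test called 0 of 10792 genes, with 84 (0.778%) at an unadjusted p under 0.05.

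Some members were higher in the 12+2 than in the 4+2 library, with Clec7a and Apoc1 well above the control at 4+2 too. The cholesterol hydroxylase gene Ch25h measured 6.77 in the 12+2 library, 4.67 in the 4+2 library and 4.48 in the control. The elastase gene Mmp12 measured 6.61, 5.34 and 5.16 in the same order, the lipoprotein lipase gene Lpl 6.30, 5.23 and 4.75, and the β-glucan receptor gene Clec7a 7.46, 6.58 and 5.70. The apolipoprotein gene Apoc1 measured 6.25 at 12+2, 5.55 at 4+2 and 4.24 in the control. With the duration difference of the other pairs taken off, none of these 5 passed at 12+2 (adjusted p from 0.40 for Clec7a to 0.83 for Mmp12 and Ch25h). Lysosomal and adaptor members such as Ctsd (12.51 and 12.41 against 12.30) and Tyrobp (12.64 and 12.42 against 12.59) were within 0.21 of the control.

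**Figure D2:**
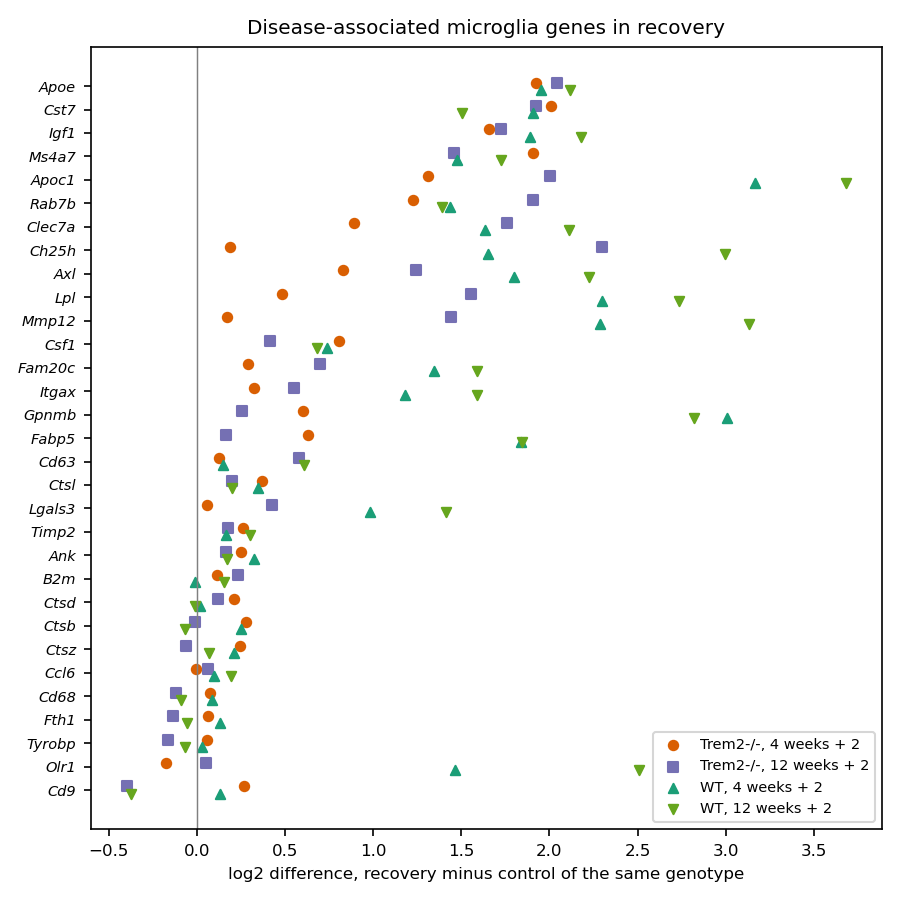
Log2 difference between recovery and the control of the same genotype on the horizontal axis, for the 31 tested disease-associated microglia genes, sorted by the mean Trem2-/- difference. Circles and squares are the Trem2-/- 4+2 and 12+2 libraries, upward and downward triangles the WT ones; Apoe, Cst7 and Ms4a7 lie at 1.46 or above in all 4, while Gpnmb, Olr1 and Fabp5 lie at 0.63 or below in Trem2-/- and at 1.47 or above in WT.

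Of the wider list of 20 tested genes of cholesterol efflux and lipid handling, 16 were higher at 4+2 (4 past 2-fold, median 0.195) and 11 at 12+2 (5 past 2-fold, median 0.065). The 12+2 count of genes higher by any amount is near the 47.8% of all genes that were higher there (54.2% at 4+2). Past 2-fold higher lay 0.658% of all genes at 4+2 and 1.96% at 12+2. With a filter at log2 7 the 12+2 median was -0.035. The fatty acid receptor Cd36 measured 6.72 and 5.92 in recovery and 5.17 in the control and passed with the block (1.54 ± 0.24, adjusted p = 0.0467). The scavenger receptor Msr1 measured 7.07 at 4+2 and 5.52 at 12+2 against 5.43, so the 4+2 value was high and the 12+2 value lay 0.09 above the control. Lipid droplet coat gene Plin2 was at 7.69 and 8.21 against 6.90 and did not pass. The efflux transporter Abcg1 was at 7.95 and 7.35 against 8.02, with no test passed.

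The list with the highest median difference at 4+2 was that of border macrophage markers. Of its 15 tested genes, 14 were higher in the 4+2 library, 11 of them past 2-fold, with a median of 1.544. In the 12+2 library 11 were higher, 1 past 2-fold, with a median of 0.318 (0.651 with a filter at log2 7). Over all genes 54.2% were higher at 4+2, 0.658% past 2-fold, and 47.8% at 12+2, 1.96% past 2-fold. With the duration difference of the other 3 pairs taken off, all 15 lay above 0 at 12+2 with a median of 1.425. That term comes only from mice given cuprizone, while the control had no feeding time. The list's summed intensity fell from 4 to 12 weeks in each of these pairs (6430 to 3186, 6821 to 3017 and 6053 to 2791). The adjusted median thus also carries the high 4-week libraries and is not a level of the 12+2 library alone. In bulk samples, fewer cells of a type and less RNA per cell cannot be told apart, and neither can more cells and more RNA.

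The haemoglobin scavenger receptor Cd163 measured 7.30 at 4+2 and 5.98 at 12+2, against 5.31 in the control, and passed with the block (2.15 ± 0.29, adjusted p = 0.031). The mannose receptor Mrc1 measured 9.64 and 8.35 against 8.03 (1.54 ± 0.20, adjusted p = 0.031). The chemokine Pf4 measured 10.85 and 9.94 against 9.29 (1.63 ± 0.19, adjusted p = 0.0273). In these genes the 4+2 library was high and the 12+2 library lay nearer to the control. For Cd163 and Pf4 the block difference exceeded that of either library. Those were 1.99 at 4+2 and 0.67 at 12+2 for Cd163, and 1.56 and 0.65 for Pf4.

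Cbr2, a carbonyl reductase, measured 7.85 and 7.25 against 6.22, and the clotting factor gene F13a1 8.04 and 6.96 against 6.19, and both passed with the block (1.81 ± 0.23, adjusted p = 0.031, and 1.95 ± 0.28, adjusted p = 0.0429). The lectin Cd209f was at 7.16 and 6.25 against 5.37 (2.07 ± 0.31, adjusted p = 0.0434) and the adaptor Dab2 at 9.93 and 8.99 against 8.69 (1.31 ± 0.19, adjusted p = 0.0434). With the mean of its probes in place of the brightest, the joint difference of Dab2 was 0.22, against 0.77. With Ccl24, 8 of the 15 were called higher with the block, as were 0.167% of all genes tested. Lyve1, the hyaluronan receptor, measured 7.89 and 6.27 against 6.35 and did not pass (1.45 ± 0.29, adjusted p = 0.21), and the transcription factor Maf was at 7.40 and 7.16 against 7.51.

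The summed linear intensity of the 17 listed genes on the array was 6238 at 4+2 and 3233 at 12+2, against 2647 in the Trem2-/- control. It was 6430 and 3186 in the Trem2-/- libraries on cuprizone for 4 and 12 weeks, and 3367 in the WT control. High values thus lay in the 4-week libraries of either diet, in WT too (6053 at 4+2), and the Trem2-/- control had the lowest sum of the 10 libraries. Of the 17 genes, 2 at 4+2, 3 at 12+2 and 3 in the control lay under the table's median. What part such cells had in the other differences was not tested.

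**Figure D3:**
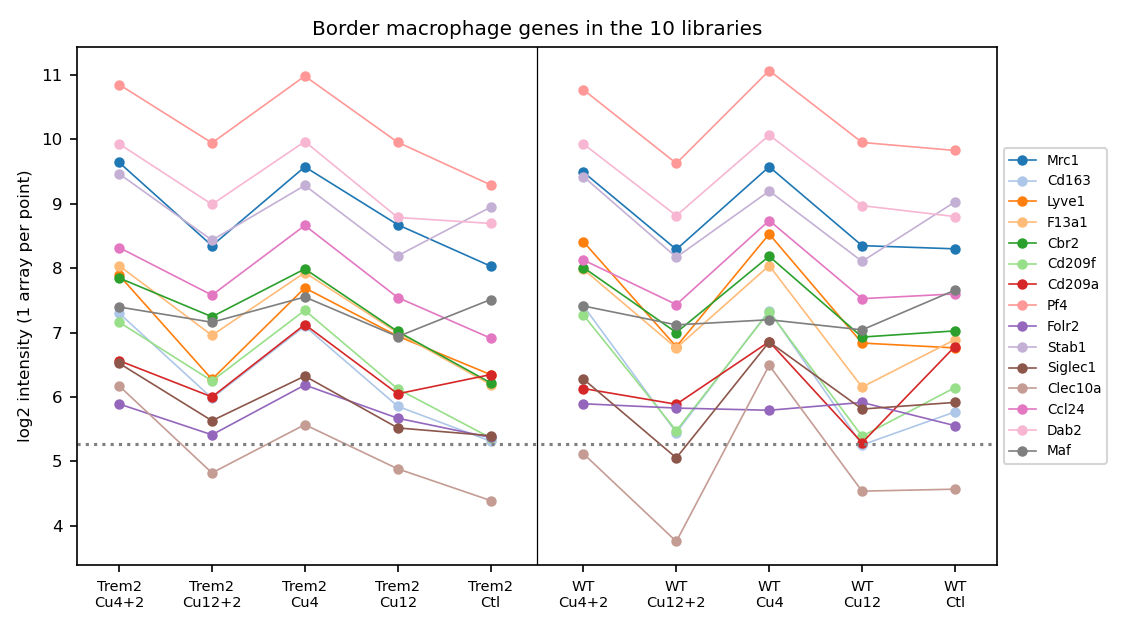
Log2 intensity of the 15 tested border macrophage genes in each library, Trem2-/- on the left and WT on the right of the vertical line, with recovery first, then cuprizone, then control; lines join the same gene and the dotted line is the table's median. Most genes are high in the 4-week libraries, and among Trem2-/- libraries most are lowest in the control, with Lyve1, Cd209a, Stab1 and Maf as exceptions.

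The block called 4 further genes outside the lists and groups described so far. Clec4n, the fungal receptor dectin-2, measured 6.19 and 4.91 against 4.24 (1.80 ± 0.21, adjusted p = 0.0273). Ms4a4a, a tetraspan membrane protein, measured 6.34 and 4.39 against 4.29 (1.93 ± 0.25, adjusted p = 0.031), so its 12+2 level lay 0.10 above the control and both were under the table's median. The scaffold Iqgap2 was at 6.07 and 5.17 against 4.68 (1.32 ± 0.20, adjusted p = 0.0467). The 1 lower gene, Cry1, a repressor of the circadian clock, measured 6.44 and 6.85 in recovery and 7.72 in the control (-1.36 ± 0.21, adjusted p = 0.0467). Cry1 was at 7.02 in the WT control and Ccl24 at 7.60, and against the mean of both controls these 2 genes did not pass (adjusted p = 0.0569 and 0.0527).

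A pair of other genes among the 10 highest at both feeding times had large differences without a call. Ttr, which codes for transthyretin and is made in bulk by the choroid plexus, measured 9.87 at 4+2 and 6.88 at 12+2 against 5.10 in the control. It was also high in the WT 4+2 library (10.95) and in the Trem2-/- library on cuprizone for 4 weeks (9.58), and its error was wide (4.70 ± 1.56 with the block, adjusted p = 0.915). Ctla2b, a protease inhibitor gene, measured 6.99 and 7.11 against 5.21 (1.69 ± 0.26 with the block, adjusted p = 0.0506).

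Besides Ccl17, Ccl22 and Cry1, the genes furthest below the control at both times were Il1r2, S100a6, Camk2a, Hp, Plp2, G0s2 and Napsa. Il1r2, the decoy receptor of interleukin 1, measured 4.80 and 4.44 in recovery and 6.11 in the control. S100a6, a calcium-binding protein, measured 7.58 and 6.34 against 8.71. Plp2 was at 7.01 in both recovery libraries and 7.90 in the control, while the WT control had 6.76. That difference depended on the probe: it was -0.89 with the brightest probe and -0.28 with the mean of the gene's probes. With the block the differences of S100a6 and Hp were -0.14 and -0.36, against -1.75 and -1.14 as designed. None of them passed in either fit.

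Homeostatic microglia genes lay within 2-fold of the control at both times, as did most genes tested. Past 2-fold lay 0.658% of all genes above and 0.0463% below at 4+2, and 1.96% above and 1.52% below at 12+2. Of the 27, 12 were higher at 4+2 (median -0.02, 54.2% of all genes higher) and 3 at 12+2 (median -0.36, 47.8% of all genes higher), and WT medians were -0.208 and -0.593. The transcription factor Sall1, which maintains microglial identity, measured 10.58 and 9.63 in recovery and 10.60 in the control, and the receptor Mertk 10.996 and 10.16 against 10.98. With the duration difference of the other pairs taken off, the 12+2 median was -0.07. MHC class II genes had medians of 0.122 and -0.075 and lysosomal genes of 0.13 and -0.078. Past 2-fold lay 0 of 26 lysosomal genes at either time, which is near the share of all genes past it.

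**Figure D4:**
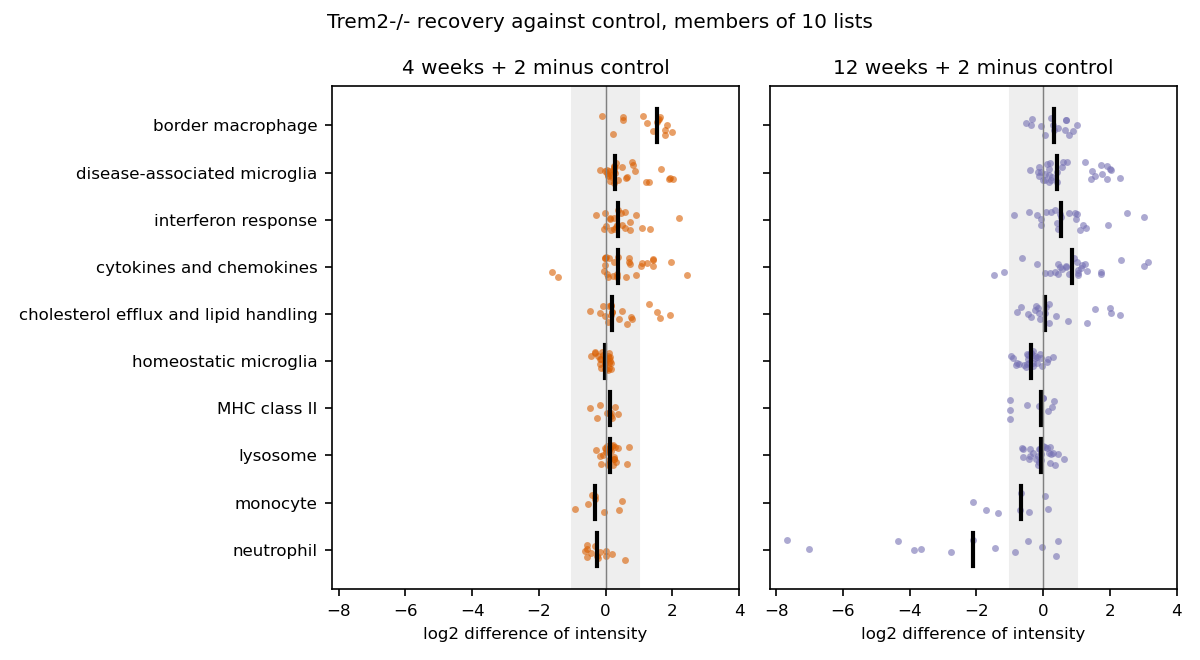
Log2 difference from the Trem2-/- control on the horizontal axis for the members of 10 gene lists, at 4+2 (left panel) and 12+2 (right panel). Points are genes, black bars list medians, and the grey band marks differences within 2-fold; the border macrophage median is 1.544 on the left and 0.318 on the right, the neutrophil median -0.242 and -2.11.

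Several of the genes furthest from the control in the 12+2 library split the series by run. Ifnb1, which codes for interferon beta, measured 9.29 at 12+2, 4.61 at 4+2 and 4.24 in the control, the last 2 levels under the table's median and near background. It lay between 8.49 and 10.43 in all 4 libraries titled 12 weeks and between 4.04 and 4.61 in the other 6. With the duration difference of the other pairs taken off, 0.20 ± 0.63 remained at 12+2 (adjusted p = 0.997).

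The precursor of the inflammatory microRNA miR-155, Mir155, measured 8.28 at 12+2, 4.83 at 4+2 and 4.83 in the control. The 4 libraries titled 12 weeks lay between 6.85 and 8.28 and the other 6 between 4.55 and 5.49. The chemokine genes Cxcl10 (11.24, 9.15 and 8.23) and Ccl5 (9.75, 7.33 and 6.62) and the fibronectin receptor subunit Itga5 (9.50, 7.11 and 7.08) were likewise highest at 12+2, given in the order 12+2, 4+2 and control. For none of these 4 did the 12+2 difference pass once the common duration difference was taken off.

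Their sequences are shown because these genes were among the 8 highest differences of the 12+2 library from the control. The 120 bases up to the Ifnb1 start and the 250 bases up to the Cxcl10 start are given (RefSeq, GRCm38.p6), and the seed of miR-155-5p is in capitals.
Ifnb1 (chr4:88522795-88522914, minus strand): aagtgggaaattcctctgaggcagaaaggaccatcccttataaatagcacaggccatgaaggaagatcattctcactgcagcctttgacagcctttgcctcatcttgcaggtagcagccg
Cxcl10 (chr5:92348890-92349139, minus strand): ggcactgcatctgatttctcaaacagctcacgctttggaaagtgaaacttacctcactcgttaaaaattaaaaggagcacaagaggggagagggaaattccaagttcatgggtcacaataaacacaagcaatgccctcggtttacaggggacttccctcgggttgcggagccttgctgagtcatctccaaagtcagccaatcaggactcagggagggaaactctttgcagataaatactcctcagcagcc
miR-155-5p (chr16:84714143-84714165, plus strand): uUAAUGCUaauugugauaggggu

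Neutrophil genes were low in the same library. S100a8, a calcium-binding protein abundant in neutrophils, measured 3.77 at 12+2 and 10.86 at 4+2, against 11.47 in the control, and its partner S100a9 4.36 and 10.83 against 11.38. The summed intensity of the 17 neutrophil genes on the array was 5885 at 4+2 and 916.5 at 12+2, against 8063 in the control, and 14, 8 and 8 of them lay under the table's median at 12+2, at 4+2 and in the control. The list median was -0.242 at 4+2 and -2.11 at 12+2, where 8 of 13 tested genes lay past 2-fold lower (1.52% of all genes), and it was -0.546 and -3.881 with a filter at log2 7. All 4 libraries titled 12 weeks had sums between 906.8 and 1068, and with the common duration difference taken off the 12+2 median was 0.458. That common difference includes the WT recovery pair, whose 4+2 library had the highest sum of the series, 15670. Lcn2, Ngp, Retnlg, Camp and Ifitm6 had the same pattern, as had Rmrp, a non-coding RNA of ribosomal RNA processing (8.58 at 12+2, 10.22 at 4+2 and 10.97 in the control).

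**Figure D5:**
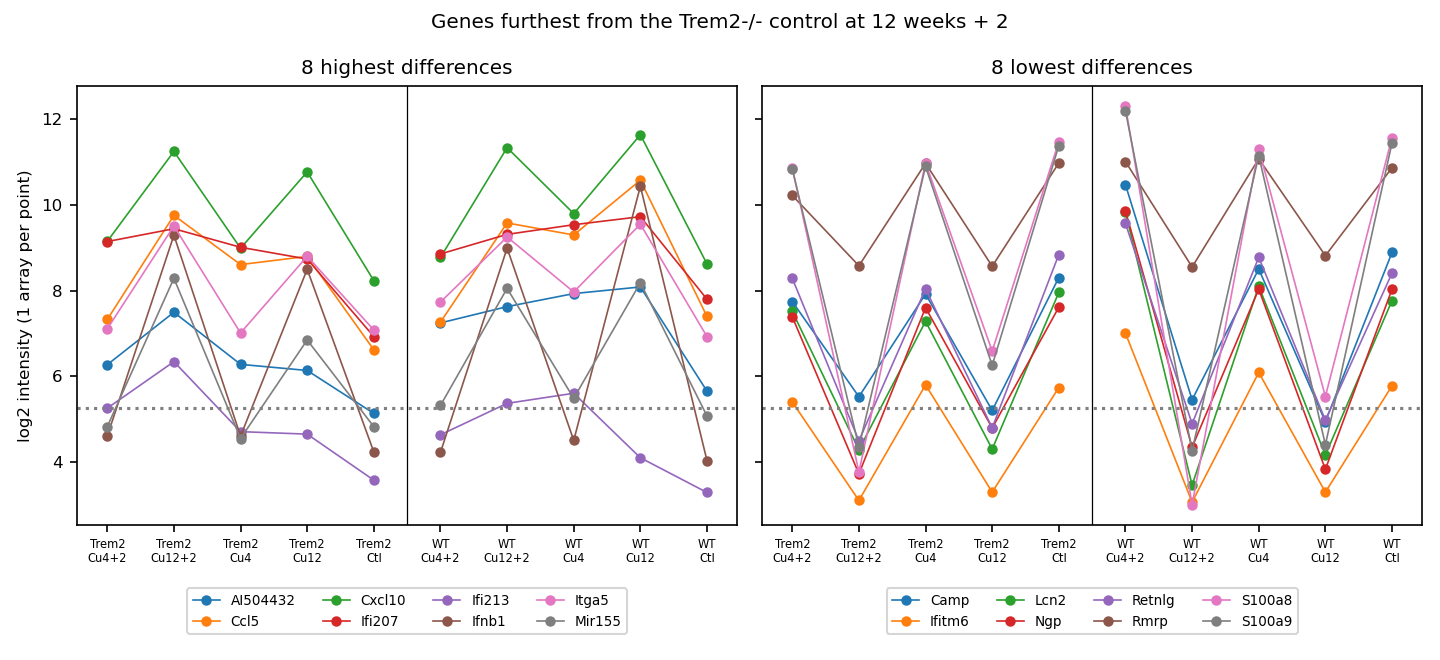
Log2 intensity in each of the 10 libraries of the 8 genes with the highest (left panel) and the 8 with the lowest (right panel) differences between the 12+2 library and the Trem2-/- control; within a panel Trem2-/- libraries stand left of WT ones and recovery precedes cuprizone and control. Ifnb1, Mir155 and Itga5 are high, and S100a8, S100a9 and Rmrp low, in all 4 libraries titled 12 weeks.

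Markers of other cell types were present to different degrees. Of those on the array, 13 of 15 T and NK cell, 7 of 9 B cell, 9 of 11 endothelial, 12 of 15 oligodendrocyte and 5 of 5 erythroid genes lay under the table's median at 4+2, and 12, 6, 10, 10 and 5 in the same order at 12+2. In the control the counts were 11, 7, 9, 11 and 5. Of 10 oligodendrocyte precursor and 10 pericyte and mural genes, 10 and 10 lay under it at 4+2, 9 and 10 at 12+2 and 9 and 10 in the control. A smaller share lay under it at 4+2 in other lists: 6 of 13 astrocyte, 6 of 12 monocyte, 8 of 17 neutrophil and 2 of 17 border macrophage genes. In the same order the counts were 7, 9, 14 and 3 at 12+2, and 7, 5, 8 and 3 in the control. Of 16 neuron genes 12 lay under it at 4+2, 11 at 12+2 and 12 in the control. Their summed intensities were 5703 at 4+2 and 6255 at 12+2, against 6044 in the control. Oligodendrocyte genes, though mostly under it, had summed intensities of 2710 at 4+2 and 2110 at 12+2, against 2614 in the control. For endothelial genes these sums were 296.1 and 270.4, against 304.3. Monocyte genes had a summed intensity of 454.5 at 4+2 and 309.0 at 12+2, against 500.6 in the control, and astrocyte genes of 4095 and 3044, against 4087. Camk2a, a kinase of neurons, was at 6.05 and 5.27 in recovery, with log2 differences from the control of -0.95 and -1.73, and the glycolytic enzyme Aldoc of astrocytes was at 6.51 and 5.35 against 7.20. Their part in the results was not tested.

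Whether 12+2 and 4+2 differ beyond the 12- to 4-week difference of the other 3 pairs was tested directly. No gene passed limma's test (429, or 3.98%, at an unadjusted p under 0.05, smallest adjusted p = 0.999), and 3 genes passed without either WT recovery library. Nudt21, a factor of mRNA 3' end processing, measured 5.43 at 12+2 and 7.55 at 4+2, against 7.72 in the control, and 7.51 to 8.17 in the other 7 libraries (-2.05 ± 0.32, unadjusted p = 0.00019). S100a6 had the smallest p, 2.63 ± 0.40 (unadjusted p = 0.000146), since its 12- minus 4-week difference was -1.24 in Trem2-/- recovery and lay between -4.44 and -3.38 in the other 3 pairs. The mitochondrial deacylase Sirt4 measured 7.01 at 12+2 and 5.69 at 4+2, against 5.77 in the control (1.42 ± 0.27, unadjusted p = 0.000686). The small nucleolar RNA Snord49b measured 8.72 at 12+2 and 11.06 at 4+2, against 10.07 in the control (-1.61 ± 0.30, unadjusted p = 0.000578).

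For 3 of the genes with a large genotype difference in recovery response, the 2 controls differed as well. Tfb2m, a mitochondrial transcription factor, measured 6.41 and 6.36 in Trem2-/- recovery and 5.82 in its control, while WT recovery had 5.88 and 6.20 and the WT control 7.37 (difference of responses 1.89 ± 0.32, unadjusted p = 0.000319). Hcar2, a receptor for the ketone body hydroxybutyrate, measured 6.99 and 7.01 in Trem2-/- recovery and 5.63 in its control, and 6.61 and 6.85 in WT recovery against 6.54 (1.18 ± 0.38, unadjusted p = 0.0148). The membrane protease Mmp14 measured 6.45 and 6.11 in Trem2-/- recovery against 6.97, and 6.70 and 6.89 in WT recovery against 6.15 (-1.33 ± 0.34, unadjusted p = 0.00438). For Tfb2m the Trem2-/- control lay 1.55 below the WT control (log2 difference -1.55), and each control is 1 library.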

How the data were processed

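The authors deposited a table of linear intensity values, 1 per probe and array, for 10 arrays hybridised with amplified RNA of sorted microglia (2 ng of total RNA, per the labels' protocols). Background correction, summarization and normalization of these deposited intensities are unknown here, since the sources used here do not give them. Log2 was taken with no further scaling, and the 10 column medians lay between 37.6 and 39.3. Arrays have no read depth, so the number of arrays limits the precision.

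Of 24567 probes, 21259 named 1 gene in the platform annotation, 1274 several and 2034 none, giving 19749 genes. The brightest probe stood for a gene (888 genes had several). A gene was tested if 2 or more arrays lay above the table's median (log2 5.27, intensity 38.5), which left 10792. Coordinates of probes are not printed. Promoter and microRNA sequences are RefSeq's, GRCm38.p6.

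Genes were tested in limma 3.58.1 under R 4.3.3 (lmFit, eBayes, 2-sided, Benjamini-Hochberg over all genes tested, threshold 0.05) on all 10 arrays, and the scripts were tested on simulated data. The joint comparison fitted 6 group means (4 residual degrees of freedom), the single controls being assumed to vary like the other groups. The comparisons per duration added a duration term common to the other pairs and one of its own for Trem2-/- recovery (2 residual degrees of freedom). A fit with titled duration as a replicate block left 3. Duration takes the place of the replicate number here, because the labels number no replicates; it pairs no animals.

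Genes are named by rule: the 10 highest and 10 lowest by the weaker of the 2 per-duration differences, the 8 highest and lowest per duration, the 5 highest and lowest by moderated t in the last 2 comparisons, Trem2, and up to 6 members of each of 31 gene lists (584 entries, 532 on the array, 417 tested) with others that a sentence on a list needs. Clec4n, Iqgap2 and the other genes called with the block were added after their values were seen. The members and lists were chosen with earlier results of these data known. Alternatives tried were filters, probe means, array medians, quantile normalization, other references, other sets of arrays and leaving out each library.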

Additional observations from a re-analysis of the deposited data

Results flagged for a closer look

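Immediate early genes, which respond quickly to stimuli and to cell handling, had list medians of -0.02 at 4+2 and -0.063 at 12+2 in Trem2-/- recovery against its control, and of 0.061 and 0.017 in WT recovery against its own. Endothelial markers had medians of -0.002 and -0.392 in Trem2-/- recovery and of 0.06 and 0.25 in WT recovery, over 3 tested genes. In both lists the genotypes lay on opposite sides of 0 at both feeding times. For immediate early genes the Trem2-/- sign depended on scaling: the 4+2 median was 0.021 with array medians subtracted and the 12+2 median 0.010 with quantile normalization. The differences were not tested, and each genotype's values share 1 control library.

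Probes that name several genes or none were left out of all comparisons. Of the 1652 such probes above the filter, 17 lay more than 2-fold above and 8 more than 2-fold below the Trem2-/- control at 4+2. At 12+2, 51 lay above and 62 below.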

How the results depend on the processing

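The counts of 0 called genes for the joint comparison and for the comparison with WT recovery stayed at 0 without a filter, with a filter at log2 7, with probe means, with array medians subtracted, with quantile normalization and when any 1 cuprizone or recovery library was left out (0 to 0). The joint count was 19 with titled duration as a replicate block, 2 with that block and the library of conflicting labels as 4 weeks, and 33 (23 higher, 10 lower) in a fit on the 3 Trem2-/- recovery and control libraries alone. With the block the comparison with WT recovery kept 0 calls. Leaving out 1 library gave 0 to 46 calls at 4+2, 0 to 61 at 12+2, 0 to 3 for 12+2 against 4+2 and 0 to 24 with the block. The cause of these movements was not tested. With a filter at log2 7, the genes past 2-fold numbered 40 at 4+2 (76 otherwise) and 228 at 12+2 (376 otherwise), where fewer genes were measured. The alternatives to the block fit were chosen after seeing the data: under the filters, probe means, scalings and the mean of both controls its count lay between 14 and 25. Of its 19 calls, Ccl7, Cd163, Clec4n, Ifi207 and Pf4 kept the call in 6 of the 8 leave-one-out fits, Apoe, Cbr2, Ccl8, F13a1, Mrc1 and Ms4a4a in 4, and the other 8 in 2. Without a Trem2-/- recovery library its own duration's comparison and that of 12+2 with 4+2 could not be fitted. The joint differences of the genes followed kept their sign under every alternative, but the main joint fit called 0 genes and so held no call that could reverse. Under the filters, probe means and scalings the block calls were counted but not followed gene by gene. Over the filters, probe means, scalings and the mean of both controls, list medians moved in 32 cases by more than the SD between the medians of the 2 feeding times, and gene differences in 4 by more than the residual spread. Among those printed, the filter at log2 7 gave -0.035 for cholesterol efflux (0.065 otherwise), -0.238 for complement (0.03) and -3.881 for neutrophil genes (-2.11) at 12+2, and 0.172 for cholesterol synthesis (-0.098) at 4+2. Against the mean of both controls the 4+2 median was -0.067 for MHC class II (0.122) and 0.056 for proliferation (-0.099), and the Ccl22 difference at 4+2 -0.906 (-1.61). With quantile normalization the respiratory chain median at 4+2 was -0.018 (0.044). Single control arrays, unnamed animals and runs that coincide with feeding time limit every value, and levels near the table's median are close to background.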

Other observations

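Of 10 tested complement genes, 8 were higher at 4+2 and 5 at 12+2 (medians 0.127 and 0.03), where 54.2% and 47.8% of all genes were higher. The 12+2 median was 0.141 without a filter and -0.238 with a filter at log2 7. C4b, a component of the classical pathway, measured 6.34 and 6.31 in recovery and 5.46 in the control, and the anaphylatoxin receptor C5ar1 9.73 and 10.49 against 9.46. Glycolysis (medians -0.037 and 0.087), cholesterol synthesis (-0.098 and 0.032), the respiratory chain (0.044 and -0.012) and proliferation (-0.099 and 0.082) had 1 gene past 2-fold among them in either library, Uqcrb at 12+2. Over all genes tested, 0.658% lay past 2-fold above and 0.0463% below at 4+2, and 1.96% above and 1.52% below at 12+2. The count in these lists is thus not far from the share of all genes.

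Among iron and copper genes, the ferroxidase ceruloplasmin (Cp) measured 6.46 at 4+2 and 5.24 at 12+2, against 5.11 in the control, and did not pass. The transferrin receptor Tfrc measured 5.23 at 4+2 and 6.71 at 12+2, against 5.47, and the iron transporter Slc11a2 6.96 and 8.65, against 7.19. Both were also high in the Trem2-/- library titled 12 weeks on cuprizone (6.83 and 8.34).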
